A study of Mus musculus with 4 samples.

Results

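Perivascular mural cells and fibroblasts are the non-endothelial cells of the vessel wall and its sheath. In the mouse prefrontal cortex (PFC) they were found by marker genes in single-cell RNA sequencing at postnatal day 1 (P1), P4, P10 and in the adult (P84), with 1 library per age. All libraries came from PFC of C57BL/6 mice, female by the study's methods, with no treatment of the animals named, and brain slices were held in actinomycin D, which blocks transcription, before dissociation. More than 1 mouse was used at every age and cells cannot be traced to a mouse, so that each age is 1 sample and no test between ages was possible. A cell was kept at 1000 or more UMIs, 1000 or more genes and at most 15% mitochondrial UMIs, which left 59918 cells. Mural cells held at least 10 UMIs of Rgs5, Kcnj8, Vtn, Pdgfrb and Abcc9 per 10,000 UMIs, and fibroblasts at least 10 of Col1a1, Col1a2, Dcn and Lum, each with 3 or more of the genes detected and fewer than 5 UMIs of the endothelial genes Cldn5 and Flt1. These measured values chose 293 cells, of which 243 were mural cells, 42 were fibroblasts and 8 met both limits and entered neither class. Levels of the 11 genes of the rule are therefore a description of the choice and not a result.

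Mural cells wrap the endothelial tube. Pericytes sit on capillaries within the same basement membrane as the endothelium, are recruited by endothelial platelet-derived growth factor through the receptor Pdgfrb, and carry the ATP-sensitive potassium channel made of Kcnj8 and Abcc9. Vascular smooth muscle cells surround arterioles and contract with smooth muscle actin (Acta2) and smooth muscle myosin (Myh11). Fibroblasts lie in the meninges and around larger vessels, produce interstitial collagens, and in the meninges make retinoic acid.

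Because the paired type IV collagen genes and Acta2 are described across ages below, their promoters are shown here, each from 250 bases before to 50 bases after the annotated start, taken from RefSeq on GRCm38.p6 and written 5′ to 3′ on the strand of the gene. Col4a1 (chr8:11312777-11313076, minus strand) and Col4a2 (chr8:11312555-11312854, plus strand) start head to head, and the 78 bases that both windows share are in capitals. In Acta2 (chr19:34255324-34255623, minus strand) capitals mark 2 CArG boxes, searched on both strands with at most 1 C or G among the 6 core bases, a pattern found in 9.98% of the 32851 promoters of the table. Of the 11 contractile genes with a promoter in the table, 2 held such a box, Acta2 and Myl9. A match describes the letters and not the binding of a factor.
Col4a1: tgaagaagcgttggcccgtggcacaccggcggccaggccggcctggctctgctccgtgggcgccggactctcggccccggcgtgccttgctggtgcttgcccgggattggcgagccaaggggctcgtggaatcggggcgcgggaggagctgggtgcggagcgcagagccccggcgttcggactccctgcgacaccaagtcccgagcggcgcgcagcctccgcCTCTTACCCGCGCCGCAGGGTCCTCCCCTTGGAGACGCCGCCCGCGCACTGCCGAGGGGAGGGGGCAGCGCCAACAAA
Col4a2: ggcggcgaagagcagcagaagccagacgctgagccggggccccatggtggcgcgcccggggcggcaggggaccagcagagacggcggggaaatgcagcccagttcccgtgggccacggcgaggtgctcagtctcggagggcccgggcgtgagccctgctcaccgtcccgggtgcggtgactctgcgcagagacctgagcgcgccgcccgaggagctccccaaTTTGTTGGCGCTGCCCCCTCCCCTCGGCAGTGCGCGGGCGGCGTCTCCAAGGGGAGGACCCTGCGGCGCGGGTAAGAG
Acta2: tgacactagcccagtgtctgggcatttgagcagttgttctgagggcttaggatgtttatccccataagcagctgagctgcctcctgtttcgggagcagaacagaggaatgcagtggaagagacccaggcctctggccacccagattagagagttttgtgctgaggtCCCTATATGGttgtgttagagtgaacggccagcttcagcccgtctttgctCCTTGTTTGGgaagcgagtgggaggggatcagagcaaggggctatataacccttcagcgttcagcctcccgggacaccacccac

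Mural cells were rare at every age. In order of age there were 36, 44, 65 and 98 of them, or 0.312%, 0.231%, 0.426% and 0.696% of filtered cells. The exact binomial (Clopper-Pearson) 95% intervals ran in the same order from 0.218% to 0.431%, 0.168% to 0.311%, 0.329% to 0.542% and 0.565% to 0.847%, and the adult interval stood above the other 3. Fibroblasts numbered 1, 0, 23 and 18 in order of age. The 0 of 19014 cells at P4 allows a share of up to 0.0158%, which is 3 counts of the total, while the shares at P10 and in the adult were 0.151% (95% interval 0.0955% to 0.226%) and 0.128% (0.0757% to 0.202%), with overlapping intervals. Intervals cover counting error only, and dissociation recovers cell types unequally, so that shares of libraries are not shares of tissue.

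**Figure D1:**
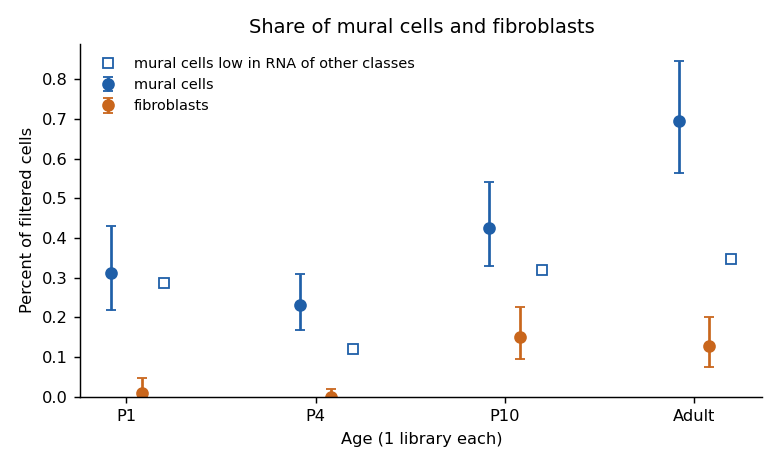
Percent of filtered cells (y axis) that were mural cells or fibroblasts in the library of each age (x axis), with exact binomial 95% intervals on the filled points and open squares for mural cells low in RNA of other classes. Mural cells took 0.696% of the adult library, above the other 3 ages, restricted mural cells took 0.321% at P10 and 0.348% in the adult, and fibroblasts were near 0 at P1 and P4.

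The limit on endothelial UMIs removed more mural candidates than the rule kept at P4, P10 and in the adult, but not at P1. Cells that met the mural limit with Cldn5 and Flt1 at 5 or more per 10,000 numbered 32, 126, 220 and 213 in order of age. The limits on the sums had few cells near them. Between 10 and 20 UMIs of the mural genes per 10,000 were found in 0, 2, 5 and 6 cells at P1, P4, P10 and in the adult, and between 5 and 10 in 0, 4, 7 and 2 cells just outside, counting cells that met both limits. No fibroblast lay between 10 and 20. The number of genes detected removed more, as 2, 16, 35 and 50 cells reached the mural sum and 1, 5, 24 and 17 the fibroblast sum, in order of age, with fewer than 3 of the genes detected.

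Some mural cells also held RNA of other classes. Summed levels, given per 1000000 UMIs (CPM) without mitochondrial and ribosomal protein genes, of 10 neuron markers were 2741 CPM in mural cells at P1 and 8645, 8644 and 8435 CPM at P4, P10 and in the adult. Adult mural cells further held 5549 CPM of 10 oligodendrocyte lineage markers, 2462 CPM of 10 microglia markers and 1817 CPM of 5 red blood cell markers, against 504, 75.6 and 12.6 CPM at P10. These sums came mostly from part of the cells. In the same order, 29, 16 and 4 of the 98 adult mural cells held 10 or more such UMIs per 10,000. Scrublet, which marks barcodes likely to hold more than 1 cell, marked 5, 12, 8 and 14 mural cells in order of age, or 13.9%, 27.3%, 12.3% and 14.3% of them, against 5.11%, 9.41%, 6.91% and 7.82% of all filtered cells. Mural cells low in RNA of other classes (limits under the processing) numbered 33, 23, 49 and 49, and are called restricted mural cells here. The adult share of restricted mural cells was 0.348% (95% interval 0.257% to 0.460%) and that at P10 0.321% (0.237% to 0.424%), with overlapping intervals, while P4 stood lower at 0.121% (0.0767% to 0.181%). The mural cells left out held 22.0%, 72.1%, 57.7% and 72.9% of the UMIs of mural cells, so most levels by age are given for all and for restricted mural cells. Summed levels of 10 astrocyte markers, which did not enter these limits, were 3590, 1542, 5170 and 7655 CPM in mural cells in order of age. All other cells held less, at 440, 779, 2028 and 2799 CPM. Of the mural cells, 35 of 36, 28 of 44, 58 of 65 and 89 of 98 held 10 or more such UMIs per 10,000. Whether these UMIs came from astrocytes or from the mural cells themselves was not tested. The part of other cells' RNA in a result was not tested beyond this.

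The libraries also differed in ways that bear on P1. Median UMIs per mural cell were 13928, 5460.5, 3650 and 2753.5 in order of age. By the file headers the P1 library was made with a later pipeline version than the others and is named P0 there, so age and pipeline cannot be told apart between P1 and P4. Y-linked genes stood at 188 CPM in P1 mural cells and at 0, 0 and 2.08 CPM later, although the methods name female mice. Barcodes shared between pairs of libraries numbered 12 to 368, and no barcode was a member in 2 libraries.

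The label of mural cells held on genes that the rule did not use. Pooled over ages, Higd1b, a mitochondrial protein of pericytes, stood at 314 CPM in mural cells and 1.73 CPM in all other cells. Notch3, the receptor that endothelial Jagged signals reach in mural cells, stood at 633 and 7.02 CPM. Cspg4, the NG2 proteoglycan, stood at 485 and 18.8 CPM, and Atp13a5, a P5-type ATPase, at 513 and 2.22 CPM. Among genes of at least 200 CPM, the 10 with the largest ratio over all other cells were Mmp9, Anpep, Abcc9, Kcnj8, Acta2, Atp2a3, Slc6a20a, Vtn, Heyl and Atp13a5. Of these, Abcc9, Kcnj8 and Vtn chose the cells. The ranking is pooled, and P1 gave 743 of 822 UMIs of Mmp9 and the adult 729 of 766 of Acta2. In restricted mural cells Tbx18, Slc38a11 and Aspn were among the 10 in place of Slc6a20a, Vtn and Atp13a5.

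Fibroblasts were likewise marked by genes outside the rule. Their 10 leading genes over all other cells were Slc22a6, Slc6a13, Fam180a, Aldh1a2, Itih2, Col3a1, Col1a1, Mrgprf, Slc13a4 and Lum, of which Col1a1 and Lum chose the cells. Slc6a13, a transporter of GABA and taurine, stood at 1189 CPM in fibroblasts and 0.132 CPM in all other cells. Aldh1a2, which makes retinoic acid, stood at 786 and 0.115 CPM. Markers of choroid plexus and ependyma were at or near 0 in mural cells, with no UMI of Ttr or Foxj1 in either class. In fibroblasts the 8 markers summed to 37.8 CPM at P10 and 54.2 CPM in the adult, against 2.12 and 4.08 CPM in all other cells.

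Levels of the 5 genes that chose the mural cells are given as a description. Rgs5, a regulator of G protein signalling, stood at 18889, 8998, 16981 and 7414 CPM at P1, P4, P10 and in the adult, and at 22086, 22130, 34468 and 16673 CPM in restricted mural cells. Kcnj8 stood at 907, 553, 618 and 225 CPM in restricted mural cells, Abcc9 at 4161, 2655, 2430 and 1479 CPM, and the receptor gene Pdgfrb at 1006, 839, 994 and 697 CPM. Vtn, the secreted adhesion protein vitronectin, stood at 2124, 1885, 4224 and 6791 CPM in these cells.

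Between P1 and P4, the imprinted Notch-type ligand Dlk1 had a large ratio in both sets of cells. It stood at 1179, 78.3, 12.6 and 4.16 CPM in order of age. Restricted mural cells gave 1444, 148, 24.2 and 0 CPM, and the P1 level was 15.1-fold above P4 in all and 9.75-fold in restricted mural cells. At P1, 34 of 36 mural cells held a UMI of Dlk1, and at 2000 UMIs per cell 27 of 36 did, against 4 of 42 at P4. H19, an imprinted noncoding RNA, stood at 113, 5.40, 0 and 0 CPM, and 1 of the 36 cells at P1 gave 61.0% of its UMIs there.

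Mmp9, a gelatinase that digests basement membrane collagen, stood at 1427, 202, 10.1 and 0 CPM in order of age. In restricted mural cells the levels were 1750, 622, 18.2 and 0 CPM. The drop from P4 to P10 was 34.2-fold in restricted mural cells, on the log2 scale -5.10 (95% interval -7.41 to -3.48). Thus Mmp9 was found in mural cells at P1 and P4 and was near its floor at P10. The adult sum held no UMI, and the upper limit of its interval was 7.67 CPM in all and 28.6 CPM in restricted mural cells.

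Some other contrasts of P1 and P4 did not hold in both sets of cells. Sema3c, a secreted guidance cue, stood at 11.5 and 151 CPM in all but at 4.94 and 9.87 CPM in restricted mural cells. The median log2 ratio of P4 over P1 of 14 pericyte genes was -0.98 in all and -0.02 in restricted mural cells. Over all 5767 genes tested in all mural cells, where tested means here and below compared at 50 CPM or more in either group with no statistical test, the median was -0.03. A gene that reached 50 CPM in 1 group alone was compared because it was high there, and counts of list members are therefore also given, where this bears on them, for genes at 50 CPM or more in both groups. Neuron markers still differed in restricted mural cells, where the limit was 28.9 per 10,000 at P1 and 40.0 at P4. There 6 of 7 tested were 2-fold or more higher at P4, beside 15.8% of all genes, with a median log2 ratio of 2.44. At 50 CPM or more in both groups there were 5 neuron markers, of which 4 were higher. The part of neuron markers in contrasts of P1 and P4 was not tested. Selenop, which carries selenium, was lower at P4 in both, at 99.9 against 878 CPM in all mural cells and 178 against 927 CPM in restricted ones.

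Most genes of cell division were found in mural cells until P10 and stood at 10.4 CPM or less in the adult, except Pcna, which also serves DNA repair, at 64.5 CPM. Mki67, a protein of dividing nuclei, stood at 173, 308, 88.2 and 0 CPM in order of age. In restricted mural cells the levels were 222, 967, 200 and 0 CPM. Top2a, the topoisomerase of replicating chromosomes, stood at 138, 154, 93.3 and 0 CPM in all mural cells and at 178, 375, 188 and 0 CPM in restricted ones. The highest level of Mki67 was thus at P4 in both sets of cells.

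The levels of division genes came from few cells. A UMI of Mki67 was found in 4 of 36, 13 of 44, 5 of 65 and 0 of 98 mural cells, and single cells gave 42.2%, 37.7% and 54.3% of its UMIs at P1, P4 and P10. At 2000 UMIs per cell, 3 of 36, 9 of 42, 3 of 59 and 0 of 76 cells held one. In endothelial cells at the same depth, 1 of 44, 9 of 78, 9 of 164 and 1 of 408 cells did. Of 12 proliferation genes, 10 were tested between P10 and P4, where 7 were 2-fold or more lower at P10, beside 7.28% of all genes tested, and none was higher, beside 8.85%. Restricted mural cells had 9 of 11 lower, beside 13.9%, and none higher, beside 12.5%. Only 3 of the 10 stood at 50 CPM or more at both ages, of which 1 was lower, and in restricted mural cells 6 of the 11 did, of which 4 were lower.

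Mgp, Sod3 and Atp2a3 were higher at P10 than at P4. They were named from the largest ratios in all mural cells, ranked as given under the processing. Perp, Ogn and Ackr3 in that ranking had larger log2 ratios (2.29, 2.22 and 2.11) than Atp2a3 (1.77) and Sod3 (1.34). In restricted mural cells Mgp was in the ranking, and Sod3 and Atp2a3 were not. Apoe, Slc1a3 and Gja1 had larger log2 ratios there (6.32, 5.50 and 5.08) than Mgp (3.37), on 1, 2 and 1 UMIs at P4. Slc1a3 is listed for astrocytes. Mgp, the matrix Gla protein that restrains calcification of vessel walls, stood at 17.3, 86.4, 429 and 337 CPM in order of age and at 22.2, 88.8, 921 and 666 CPM in restricted mural cells. Sod3, the extracellular superoxide dismutase, stood at 465, 497, 1255 and 1116 CPM, and at 499, 1017, 2443 and 2037 CPM in restricted mural cells. Atp2a3, a calcium pump of the endoplasmic reticulum, stood at 327, 108, 368 and 408 CPM, and at 413, 257, 776 and 836 CPM in restricted ones. P10 also stood above P1 for Mgp, Sod3 and Atp2a3. For Atp2a3 the levels were 368 against 327 CPM in all and 776 against 413 CPM in restricted mural cells.

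Of 14 pericyte genes tested between P10 and P4, 4 were 2-fold or more higher, beside 8.85% of all genes tested, and none lower, beside 7.28%, while in restricted mural cells 3 of 14 were higher, beside 12.5%. The median log2 ratio was 0.68 in all and 0.46 in restricted mural cells, against -0.03 and -0.05 over all genes tested. Atp13a5 stood at 442, 300, 688 and 611 CPM in order of age, and Notch3 at 643, 335, 698 and 798 CPM. The restricted levels of Atp13a5 were 512, 661, 1346 and 1038 CPM and those of Notch3 789, 819, 1418 and 2060 CPM. Genes listed for astrocytes moved with these. In all mural cells 6 of 6 tested astrocyte markers were 2-fold or more higher at P10, and Aqp4 stood at 16.2 and 151 CPM at P4 and P10. All UMIs of Aqp4 at P4 were in 1 cell, and at P10 6 of 65 cells held it, with 61.7% in 2 cells. The restricted mural cells were not chosen on astrocyte markers, and there 6 of 8 were higher. Of these markers, 3 stood at 50 CPM or more at both ages in all mural cells, and the 3 were higher, while 1 did in restricted ones and was not 2-fold higher. The part of astrocyte RNA in the other contrasts of P4 and P10 was not tested. Ctgf, a matricellular protein, had a large ratio in all mural cells (5.40 and 194 CPM) that rested on 1 cell with 93.5% of its UMIs at P10. Restricted mural cells gave 19.7 and 24.2 CPM.

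**Figure D2:**
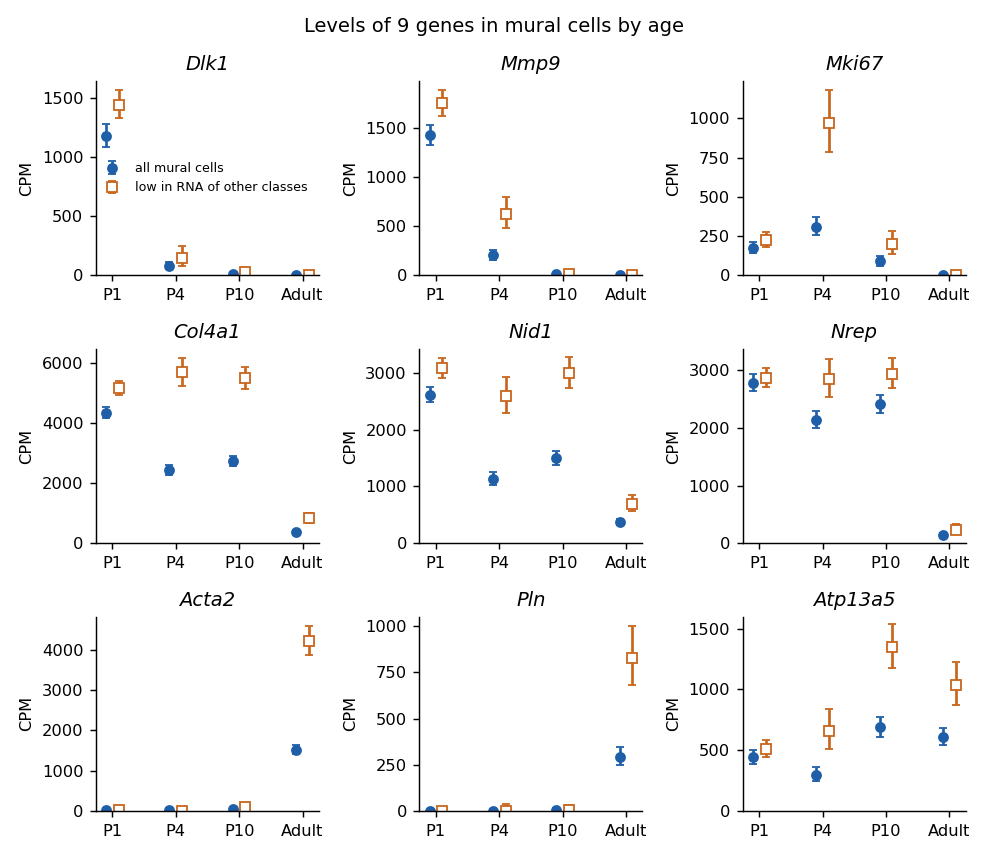
Levels (CPM, y axes from 0) of 9 genes in mural cells at each age (x axes), for all mural cells (filled circles) and restricted mural cells (open squares), with exact Poisson 95% intervals. Dlk1 and Mmp9 were high at P1, Mki67 was highest at P4, Col4a1, Nid1 and Nrep were lowest in the adult, and Acta2 and Pln were high in the adult library.

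Basement membrane genes were lower in adult mural cells than at P10. Col4a1 and Col4a2 encode the chains of the main type IV collagen of vessels, and their promoters are those shown above. Col4a1 stood at 4337, 2424, 2720 and 387 CPM at P1, P4, P10 and in the adult, and Col4a2 at 1698, 926, 986 and 173 CPM. In restricted mural cells the levels of Col4a1 were 5159, 5695, 5497 and 829 CPM and those of Col4a2 2047, 2073, 2000 and 379 CPM. Both genes were thus at a near constant level up to P10 in restricted mural cells, and the adult was 6.63-fold lower for Col4a1 and 5.27-fold lower for Col4a2. At 2000 UMIs per cell, 55 of 59 mural cells at P10 and 38 of 76 in the adult held a UMI of Col4a1. Endothelial cells also had a lower share in the adult, with 139 of 164 and 223 of 408.

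The same contrast was found for the proteins that join this network. Nid1, which links collagen to laminin, stood at 1505 CPM at P10 and 372 CPM in the adult, and at 3006 and 697 CPM in restricted mural cells. Lamb1 (416 and 79.0 CPM), Lama4 (570 and 175 CPM) and Sparc (2435 and 1083 CPM), which encode 2 laminin chains and a collagen-binding protein, were also lower in the adult. Their levels in restricted mural cells were 818 and 147 CPM, 1121 and 364 CPM, and 4582 and 1495 CPM. Of 12 basement membrane genes tested, 9 were 2-fold or more lower in the adult, beside 8.6% of all genes tested, and 1 was higher, beside 11.5%. The median log2 ratio was -1.73 against -0.01 over all genes. In restricted mural cells 10 of 14 were lower, beside 14.2%, and 2 higher, beside 17.5%, with a median of -1.63 against 0.06. At 50 CPM or more in both groups there were 11 genes in all and 11 in restricted mural cells, and 8 were lower in each.

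Lamb2, a laminin chain of mature basement membranes, was the gene of this list that was higher in the adult, at 58.0 CPM at P10 and 116 CPM in the adult. Lama5, the laminin chain of mature endothelial basement membranes, joined it in restricted mural cells, with no UMI before the adult and 92.9 CPM there. Itga1, the integrin subunit that binds type IV collagen, stood at 1727 and 597 CPM at P10 and in the adult, and at 3630 and 1154 CPM in restricted mural cells. Lama2 stood at 272 and 216 CPM, and at 576 and 441 CPM in restricted ones, with overlapping intervals in both. Other lists moved between the same libraries. Both endothelial markers tested were 2-fold or more lower in adult mural cells, beside 8.6%, and 2 of 3 in restricted ones, beside 14.2%. None of these markers stood at 50 CPM or more in both groups in either set of cells. The summed level of the 10 was 335 CPM at P10 and 181 CPM in the adult. Of 5 immediate early genes tested, 4 were higher in the adult, beside 11.5%, with a median log2 ratio of 1.39, and restricted mural cells had 5 of 6 higher, beside 17.5%, with a median of 2.03. A single immediate early gene stood at 50 CPM or more in both groups in each set of cells, and it was higher. Their part in the contrast of matrix genes was not tested.

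Interstitial matrix genes had the same direction. Col3a1 stood at 230, 151, 113 and 14.6 CPM in mural cells in order of age, and at 284, 345, 206 and 38.7 CPM in restricted ones. Of 9 genes of fibrillar collagens and interstitial matrix tested between the adult and P10, 7 were 2-fold or more lower, beside 8.6%, and none higher, beside 11.5%. Restricted mural cells had 7 of 10 lower, beside 14.2%, and 1 higher, beside 17.5%. At 50 CPM or more in both groups there were 4 genes in each set, of which 2 were lower. Nrep, Fstl1, Tpm4 and Sfrp2 were named for the size of their ratios. Nrep, a protein of regenerating and immature tissue, stood at 2783, 2146, 2413 and 137 CPM, and the adult was 17.6-fold below P10 in all and 12.7-fold in restricted mural cells. Nrep was not particular to mural cells, since all other cells held 1095 CPM at P10 and 151 CPM in the adult. Fstl1, a follistatin-like secreted glycoprotein, stood at 650 and 119 CPM, Tpm4, a cytoskeletal tropomyosin, at 781 and 125 CPM, and Sfrp2, a Wnt inhibitor, at 209 and 20.8 CPM at P10 and in the adult. Each of these was also at least 5-fold lower in adult restricted mural cells.

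The contractile genes Acta2, Tagln, Myh11 and Pln were near 0 in mural cells up to P10 and high in the adult library, while Myl9, a myosin light chain, was found at every age with 486, 462, 724 and 998 CPM. Acta2 stood at 26.9, 18.9, 40.3 and 1516 CPM in order of age, Tagln, an actin-binding protein of smooth muscle, at 8.10, 17.6 and 561 CPM from P4 on, and Myh11 at 3.84, 8.10, 25.2 and 563 CPM. Pln, which restrains the calcium pump of the sarcoplasmic reticulum, stood at 0, 0, 5.04 and 293 CPM. The adult was 37.6-fold above P10 for Acta2 in all and 43.6-fold in restricted mural cells, where its levels were 34.6, 9.87, 97.0 and 4228 CPM. Of the 14 contractile genes, 10 reached 50 CPM at either age, but 6 of these did so in the adult alone. Of the 4 at 50 CPM or more at both ages, 1 was 2-fold or more higher in the adult and none lower. In restricted mural cells 8 stood at 50 CPM or more at both ages, of which 5 were higher and none lower.

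The adult sums of Acta2, Tagln, Myh11 and Pln came from a set of cells. Mural cells with at least 10 UMIs of Acta2, Tagln, Myh11 and Cnn1 per 10,000 and 3 of them detected, called contractile here as a range and not a type, numbered 0 of 36, 0 of 44, 3 of 65 and 20 of 98 in order of age. The shares at P10 and in the adult were 4.62% (95% interval 0.962% to 12.9%) and 20.4% (12.9% to 29.7%), and the intervals did not overlap, although the nearest limits both round to 12.9%. In restricted mural cells the shares were 6.12% (1.28% to 16.9%) and 32.7% (19.9% to 47.5%), whereas without the endothelial limit the adult share was 9.12% (6.15% to 12.9%). The P10 share without that limit is not given here, so the contrast with P10 is not described in that setting. Near the limit, 1 adult cell lay between 5 and 10 and 3 between 10 and 20 UMIs per 10,000, and the median over adult contractile cells was 127. Of the 98 adult mural cells, 71 held no UMI of the 4 genes. Depth went with the limit in part, as contractile adult cells had a median of 4269.5 UMIs and the others 2545.5. The rule for mural cells rests on pericyte genes, so smooth muscle cells that lack them were not counted. In sums over a class, fewer contractile cells and less RNA per cell cannot be told apart, which the values per cell above show in part.

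**Figure D3:**
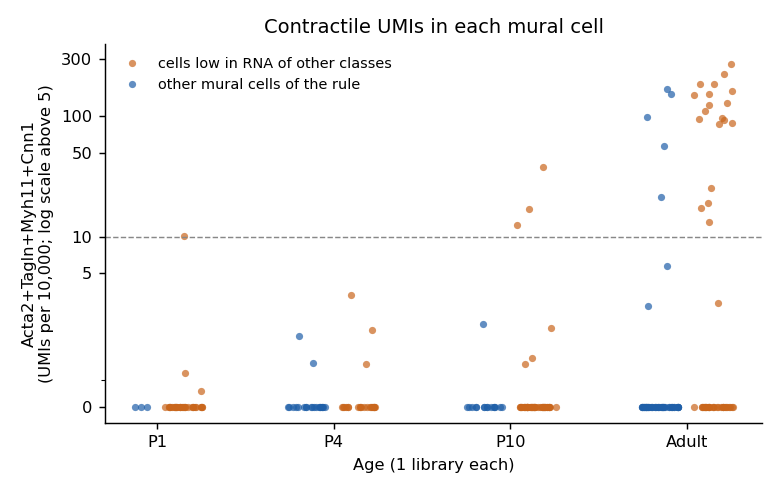
UMIs of Acta2, Tagln, Myh11 and Cnn1 per 10,000 UMIs (y axis, log scale above 5) in each mural cell by age (x axis), with restricted mural cells in orange and the other mural cells in blue and the limit of 10 as a dashed line. Most cells lie at 0 at every age, 1 cell at P1 with fewer than 3 of the genes detected and 3 cells at P10 lie above the limit, and adult cells reach 275.

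Adult contractile cells were set beside the other adult mural cells. The median log2 ratio of the 14 pericyte genes, contractile over other, was 0.36 in all and -0.82 in restricted mural cells, so its sign changed with the choice of cells. Kcnj8, Abcc9 and Vtn chose the cells, and their levels are a description. Among restricted mural cells of the adult, 16 contractile cells held 17.1 CPM of Kcnj8, 0 CPM of Abcc9 and 719 CPM of Vtn, against 396, 2699 and 11801 CPM in the 33 others. Rgs5 stood at 15828 and 17369 CPM, and Notch3 at 2398 and 1781 CPM.

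Some genes outside both rules also differed in level between these restricted cells. Atp13a5 stood at 103 CPM in contractile cells and 1809 CPM in the others, and Slc6a20a, a transporter of proline, at 51.4 and 1484 CPM. Ntn4, a netrin of vessel basement membranes, stood at 1456 and 113 CPM, and Pln at 1833 and 0 CPM. Rgs5, a gene of the rule, was 2.29-fold higher in the 20 contractile cells when all adult mural cells were used. The haemoglobin gene Hbb-bs stood at 3800 CPM in these 20 and 2.50 CPM in the other 78, but all 308 of its UMIs were in 1 of the 20 cells.

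Vasoactive receptors and ion channels differed in direction from one contrast to the next. Of 13 tested between P4 and P1, 11 were 2-fold or more lower at P4, beside 19.5% of all genes tested, and none higher, beside 18.5%. Restricted mural cells had 4 of 12 lower, beside 15.8%, and all 12 log2 ratios were below 0. Of 15 tested between P10 and P4, 4 were higher at P10, beside 8.85%, and none lower, beside 7.28%. At 50 CPM or more in both groups, 9 of 11 were lower at P4 than at P1, and 3 of 11 in restricted mural cells. By the same limit 2 of 11 were higher at P10 than at P4, and 1 of 11 in restricted mural cells. Of 15 tested between the adult and P10, 2 were 2-fold or more higher, beside 11.5%, and 3 lower, beside 8.6%, with a median log2 ratio of -0.32 in all and 0.23 in restricted mural cells. Ednra, the endothelin receptor, stood at 943, 289, 348 and 139 CPM in order of age. Ano1, a calcium-activated chloride channel, stood at 165, 54.0, 65.5 and 235 CPM. Gucy1a1, a subunit of the nitric oxide receptor guanylate cyclase, stood at 1166, 502, 512 and 241 CPM. Ednra and Gucy1a1 were thus lowest and Ano1 highest in the adult, and these orders were the same in restricted mural cells.

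Among receptors and ligands of vessel signalling, mural cells carried Notch3, S1pr3 and Itga1 at 633, 392 and 1349 CPM pooled over ages, while endothelial cells of the same libraries held 1.94, 2.53 and 442 CPM. Those endothelial cells were chosen with fewer than 5 UMIs of the mural genes and of the fibroblast genes, on the scale of the rule. Barcodes with both endothelial and mural RNA were thus left out, and low levels of mural genes there are in part set by the choice. Pdgfb, the ligand of Pdgfrb, stood at 269 CPM in endothelial cells and 19.8 CPM in mural cells. Mural cells were in turn limited in Cldn5 and Flt1, which bears on their level of Pdgfb. Jag1, a Notch ligand, stood at 138, 32.4, 42.9 and 91.5 CPM in mural cells in order of age, and at 161, 49.4, 90.9 and 225 CPM in restricted ones. Of 10 transcription factors of mural cells and fibroblasts tested between the adult and P10, 1 was 2-fold or more lower, beside 8.6%, and none higher, beside 11.5%, with a median of -0.37. Tbx18, Foxc1 and Nr2f2 stood at 75.6 and 83.2, 179 and 108, and 265 and 227 CPM at P10 and in the adult, and in restricted mural cells at 133 and 240, 364 and 240, and 509 and 465 CPM.

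Fibroblasts were too few for ratios between ages, with 23 cells at P10 and 18 in the adult, and their levels are given side by side. Col1a1 and Col1a2, which chose the cells, stood at 5997 and 7101 CPM at P10 and 2817 and 3494 CPM in the adult. Col3a1, which did not, stood at 4039 CPM (95% interval 3703 to 4396) and 569 CPM (410 to 769). Eln, elastin, stood at 650 and 122 CPM, with 88.9% of its 9 adult UMIs in 1 cell, and Col6a1 at 1097 and 352 CPM. Col4a1 stood at 5332 and 1571 CPM and Nrep at 1868 and 108 CPM. The adult intervals of these genes lay below those of P10, as they did for Col3a1, Col4a1 and Nrep in mural cells. Such intervals cover counting error only and not the spread between cells. For Col3a1, 2 fibroblasts gave 30.7% of its UMIs at P10 and 2 gave 42.9% in the adult.

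Other named genes had the opposite order. Slc6a13 stood at 802 and 1828 CPM, and Slc6a20a at 953 and 1788 CPM. Pdgfra, the receptor that marks fibroblasts, stood at 938 and 2018 CPM, and Aldh1a1 at 764 and 1706 CPM. Bmp7, a growth factor of the meninges, stood at 492 and 1111 CPM, and Ctgf at 98.3 and 1111 CPM, with a UMI in 6 of 23 and 15 of 18 cells. Aldh1a2 stood at 718 and 772 CPM and Slc22a6, an organic anion transporter, at 552 and 650 CPM, with overlapping intervals at the 2 ages.

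Ptgds, which makes prostaglandin D2 and marks the meninges, was spread unevenly over the fibroblasts. Its sums were 9431 CPM at P10 and 20328 CPM in the adult. At P10 only 5 of 23 cells held a UMI, 1 cell gave 76.5% of its UMIs and the top 2 cells 97.5%, and the level without those 2 cells was 249.7 CPM. In the adult all 18 cells held it, the top cell gave 28.2%, and the level without the top 2 cells was 11970 CPM.

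**Figure D4:**
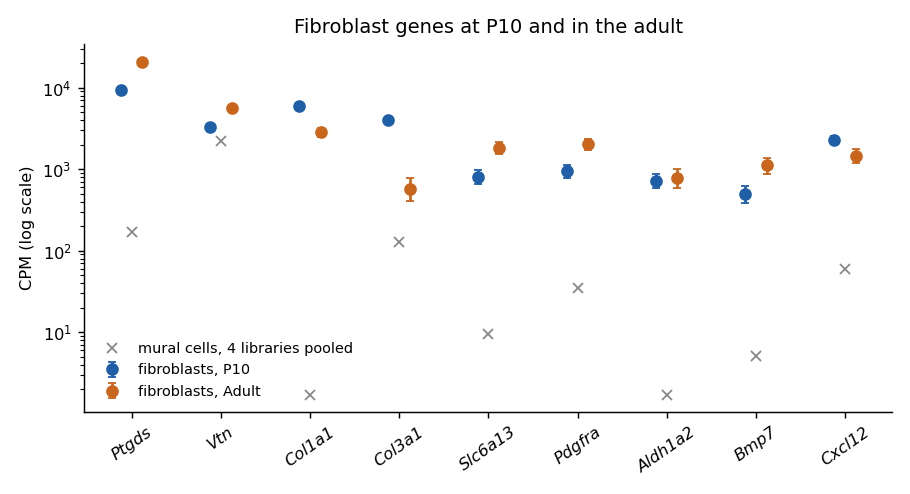
Levels (CPM, log y axis) of 9 genes in fibroblasts at P10 (blue) and in the adult (orange) with exact Poisson 95% intervals, and in mural cells pooled over ages (grey crosses). Slc6a13, Pdgfra and Bmp7 were higher in the adult and Col3a1 was lower, Col1a1 and Vtn chose cells and are shown as a description, and the P10 level of Ptgds came to 97.5% from 2 cells.

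The fibroblasts had levels of genes that are used as markers of other classes. Summed levels of the 10 astrocyte markers were 8009 CPM at P10 and 17078 CPM in the adult, above those of mural cells, and their part in the levels above was not tested. Slc1a3, a glutamate transporter listed for astrocytes, stood at 1687 and 1991 CPM at P10 and in the adult, and Gja1, connexin 43, at 764 and 609 CPM. Aqp4, the water channel of astrocytes, stood at 75.6 and 40.6 CPM. Summed levels of the 10 endothelial markers were 1066 CPM at P10 and 677 CPM in the adult, against 335 and 181 CPM in mural cells. Of these 10 markers, 6 had no UMI in fibroblasts at P10 and 5 had none in the adult. The part of endothelial RNA in the levels of fibroblasts was not tested. Cdh5, an endothelial cadherin, stood at 182 and 149 CPM, while Pecam1, Tie1 and Emcn were at 0 at both ages. Summed neuron markers were 3131 and 3914 CPM, below those of mural cells of the same libraries.

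The P1 fibroblast was marked by Scrublet. It had 13955 UMIs, with Col1a1 at 12479 CPM, Col3a1 at 8530 CPM, Aldh1a2 at 1580 CPM and Bmp6 at 1264 CPM, and the pooled values below include it.

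Fibroblasts and mural cells, compared over the pooled libraries, differed in matrix, retinoic acid and transport genes. Leaving out the 11 genes of the rule, 11.8% of 5855 genes tested were 2-fold or more higher in fibroblasts and 14.1% were lower. Of the fibrillar collagens and interstitial matrix, 19 of 21 genes tested were 2-fold or more higher in fibroblasts, with a median log2 ratio of 3.35, and 15 of 21 were higher in restricted members, beside 14% of all genes tested there. Mfap4, a microfibril protein, stood at 521 CPM in fibroblasts and 0.565 CPM in mural cells. All 6 tested genes of retinoic acid and the meninges and all 6 solute carriers tested were higher in fibroblasts. Slc22a6 and Slc13a4 had no UMI in mural cells. At P10 alone, where the shares over all genes were 17.8% higher and 18.8% lower, 18 of 21 matrix genes, 6 of 6 retinoic acid genes and 7 of 7 solute carriers were higher in fibroblasts. Most of these genes passed through fibroblasts alone. Over the pooled libraries, 8 matrix genes, 1 retinoic acid gene and 2 solute carriers stood at 50 CPM or more in both classes, of which 7, 1 and 2 were higher in fibroblasts. In restricted members 9 matrix genes, no retinoic acid gene and 2 solute carriers did. Of these, 4 matrix genes and 2 solute carriers were higher in fibroblasts.

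Several ligands also differed in level between the classes. Bmp6, a growth factor also linked to iron balance, stood at 668 CPM in fibroblasts and had no UMI in mural cells. Bmp7 stood at 736 and 5.09 CPM, and Cxcl12, a chemokine, at 1971 and 59.4 CPM. Edn3, endothelin 3, stood at 727 CPM in fibroblasts with no UMI in mural cells, while Ednra stood at 22.9 and 454 CPM. Wnt5a stood at 384 and 37.9 CPM. Of 13 ligands tested, 8 were 2-fold or more higher in fibroblasts, beside 11.8% of all genes tested, and 2 lower, beside 14.1%. In restricted members 7 of 12 were higher, beside 14%, and 4 lower, beside 16.4%. At 50 CPM or more in both classes there were 4 ligands in all members, of which 2 were higher in fibroblasts and none lower. Restricted members also had 4 such ligands, of which 2 were higher and 1 lower.

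Most pericyte and vasoactive genes were higher in mural cells. Of 14 pericyte genes, 13 were 2-fold or more higher in mural cells, beside 14.1% of all genes tested, with a median log2 ratio of -3.70 for fibroblasts over mural cells. Notch3 stood at 4.57 CPM in fibroblasts, Igfbp7, a binding protein of insulin-like growth factors, at 41.1 against 1882 CPM, and Mgp at 9.14 against 211 CPM. Of 14 vasoactive genes tested, 12 were higher in mural cells, beside the same 14.1%. Of 9 contractile genes tested, 8 were higher in mural cells pooled over ages, but at P10 alone 2 of 5 were, beside 18.8%, and 1 was higher in fibroblasts, beside 17.8%. Each of the 3 lists had 4 genes at 50 CPM or more in both classes over the pooled libraries, and in each 3 of the 4 were higher in mural cells. Mmp9 and Dlk1 had no UMI in fibroblasts, which were found mainly at P10 and in the adult, where mural cells also held little of either.

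Basement membrane genes were found in both classes. Of 13 tested, 4 were 2-fold or more higher in fibroblasts, beside 11.8%, and 1 in mural cells, beside 14.1%. At P10 alone 5 of 13 were higher in fibroblasts, beside 17.8%, with a median log2 ratio of 0.85, and in restricted members 2 of 13 were, beside 14%. The median was 0.77 in all and 0.21 in restricted members. Nid1 stood at 1655 CPM in fibroblasts and 1449 CPM in mural cells, and Lama4 at 462 and 550 CPM. Agrn, agrin, was the gene higher in mural cells, at 343 against 119 CPM. Vtn, a gene of the mural rule, stood at 4046 CPM in fibroblasts and 2239 CPM in mural cells, pooled over ages that the classes held in unlike numbers. Fibroblasts held 3282 CPM of it at P10 and 5580 CPM in the adult. Restricted mural cells held more at the same ages, as given above, but these fibroblasts were not restricted, so the sets are unlike. Without restriction, mural cells that were not contractile held 2129 CPM at P10 and 4341 CPM in the adult. Contractile ones held 3414 and 691 CPM. Slc6a20a was also found in both, at 1184 and 302 CPM, and Zic1, a transcription factor of the meninges, at 869 and 574 CPM.

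**Figure D5:**
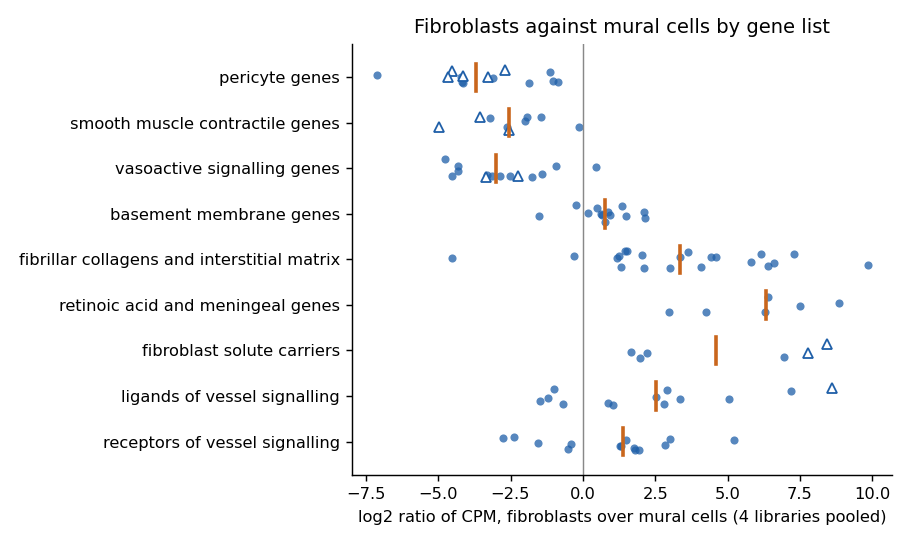
log2 ratio of pooled CPM in fibroblasts over mural cells (x axis) for genes of 9 lists (rows) at 50 CPM or more in either class, without the genes of the rule. Points are genes, and open triangles are bounds from a floor of 3 UMIs in the class without a UMI. Orange bars are medians, which run from -3.70 for pericyte genes to 6.34 for retinoic acid and meningeal genes. Only 4 of 14 pericyte genes and 1 of 6 retinoic acid and meningeal genes reached 50 CPM in both classes. The medians are thus in part set by the limit on level.

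The 8 cells that met both limits held RNA of both sets by the rule. Together they had 8613 CPM of Ptgds, which the rule did not use. They came from P4 (1 cell), P10 (2 cells) and the adult (5 cells), and none was marked by Scrublet.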

How the data were processed

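Single-cell suspensions of PFC were profiled on the BD Rhapsody whole transcriptome platform, and the deposited files hold counts of UMIs per gene and cell, made by the authors with the BD Rhapsody pipeline (version 1.8 for P4, P10 and the adult and a later version for P1, per the file headers) on mm10. The mice, female by the methods, cannot be told apart within a library. Cells and limits were as given in the text, where gene lists appear only by counts and by the members named. The members and lists were chosen with earlier results of these data known. UMIs were summed per class and library and divided by the sum without mitochondrial and ribosomal protein genes and scaled to 1000000 (CPM). Intervals are exact Poisson for levels, Clopper-Pearson for shares and conditional binomial for ratios, at 95%, and cover counting error only. With 1 library per age no p-value was computed. A gene was tested, meaning compared, at 50 CPM or more in either group, and counted as higher or lower at 2-fold or more. A sum of 0 entered ratios at a floor of 3 UMIs.

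Restricted mural cells were chosen after seeing the data. They held less than 0.5 times the median of neuron markers (without Meg3) of the non-member cells of their library, and per 10,000 UMIs fewer than 10 of microglia, 20 of oligodendrocyte lineage and 10 of red blood cell markers. Named genes were those of the rule, members of the lists with the highest level or largest ratio, the 10 leading genes of each class, the 10 largest ratios each way between classes and the 8 largest each way between ages, ranked by the interval bound nearest 0. Ntn4, Lama2, Pcna, Hbb-bs and genes set beside a result were named after their values were seen. Scrublet was computed as a mark and removed no cell. Python 3.11.15, numpy 2.4.6, pandas 2.3.3, scipy 1.17.1 and scanpy 1.11.5 were used. The ratio code was tested on simulated data.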

Additional observations from a re-analysis of the deposited data

Results flagged for a closer look

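Cells that met the limit of mural genes but held 5 or more UMIs of Cldn5 and Flt1 per 10,000 numbered 591 over the 4 libraries. They are neither mural cells nor fibroblasts here, are counted among all other cells, and outnumber the 243 mural cells.

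Y-linked genes stood at 188 CPM in the mural cells of the P1 library, where the methods name female mice, and at 0, 0 and 2.08 CPM at P4, P10 and in the adult. Contrasts of P1 with later ages and this difference between libraries cannot be told apart.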

How the results depend on the processing

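Shares and counts below are those that moved, beside main counts of genes of 479 higher and 394 lower for P10 over P4, 634 and 473 for the adult over P10, and 691 and 826 for fibroblasts over mural cells. The cause was not tested. With Scrublet-marked cells removed, the fibroblast share at P1 was 0 and 666 genes were lower at P10 than at P4. At a marker limit of 5 per 10,000, 533 genes were lower in fibroblasts. With a stricter cell filter, mural shares were 0.319% at P10 and 0.357% in the adult. With the mean of per-cell CPM, 640 genes were lower at P10 than at P4. Cells thinned to 2000 UMIs gave 832 higher and 998 lower for P10 over P4, 1092 and 813 for the adult over P10, and 1073 higher in fibroblasts. Leaving out members with neuron marker UMIs above the median gave 854 and 967, and 1067 and 928, and log2 ratios of the other sign for Rgs5 in P4 over P1 (0.15, interval 0.07 to 0.22) and Ctgf in P10 over P4 (-0.21, interval -4.00 to 3.57, which spans 0). Genes of 10 UMIs in either group gave 844 and 764, 1286 and 844, and 1307 and 1915. Restricted members, added after seeing the data, gave mural shares of 0.121% at P4, 0.321% at P10 and 0.348% in the adult, a contractile share of 32.7%, 737 lower for P10 over P4, 963 and 782 for the adult over P10, and log2 ratios of the other sign for Rgs5 in P4 over P1 (0.0029, interval -0.065 to 0.070, which spans 0) and in contractile over other adult cells (-0.13, interval -0.26 to -0.0097). Without an endothelial limit, also added, mural shares were 0.589%, 0.894%, 1.87% and 2.18% in order of age, the adult contractile share was 9.12%, and 175 genes were higher and 63 lower for P10 over P4. No paired analysis was possible because the libraries share only replicate number 1, with 1 library per age. Of 60 log2 ratios of named genes past 2-fold, 51 stayed so without an endothelial limit, 52 at the limit of 5 and 53 in restricted members. Over the other settings, 53 of 59 stayed with neuron-rich members left out, and 55 to 60 of 60 under the rest.

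Leaving out a library leaves no sample of that age and was not run. Depth limits single genes in fibroblasts and in the smaller sets of restricted cells.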
